A study of Arabis alpina with 18 samples.

Results

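The 8 genes described here are Arabis alpina genes of the circadian clock and of day-length sensing: LHY, CCA1, COL1, PRR5, LUX, ELF4, FKF1 and JMJD5. They are 8 of 34220 genes in the deposited count table. Each was identified by the Arabidopsis locus that the authors' deposited lists pair with its identifier, and each identifier matched 1 row of counts. A. alpina is a perennial crucifer, and messenger RNA of its accession Pajares was sequenced from long-day plants. The 18 libraries form 6 groups of 3, namely shoot apices of the pep1-1 mutant and of the eop055 mutant at 3 weeks, the same at 5 weeks, and leaves 5 and 6 of both mutants at 5 weeks. PEP1 corresponds to FLC, a floral repressor of Arabidopsis, and TOE2, the subject of the series, is an AP2-like floral repressor. The labels call eop055 a mutant, without giving its lesion or saying whether it carries the pep1-1 allele. No wild type group was analysed here, and the hour of harvest and the number of plants per library are not stated by the labels.

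In Arabidopsis the MYB-like factors LHY and CCA1 peak around dawn and repress genes that peak later in the day. PRR5, a pseudo-response regulator of the afternoon, represses LHY and CCA1 in turn, and ELF4 and LUX act with ELF3 in the evening complex, a night-time repressor. FKF1 is a blue-light receptor and F-box protein that lets CONSTANS act in long days, COL1 is a close relative of CONSTANS, and JMJD5 is a histone demethylase homolog with a role in the clock. Transcripts of such genes rise and fall over each day. These roles are known from Arabidopsis and were taken over with the locus names.

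Libraries held 7987096 to 14132723 gene counts. Levels are given as CPM, counts scaled by TMM to a common library size, which are not corrected for transcript length, so levels were compared between samples and not between genes. Replicates may be technical in part, since the labels do not say that they came from separate plants, and the p-values then rest on the spread of these libraries alone. All 8 genes passed the filter on low counts. Overlap of libraries between groups was examined only for genes described here. The share of all genes without overlap was not counted, so a lack of overlap is a description. Names exist only for genes that the authors had called between genotypes: 7 of the 8 stood in the authors' deposited tables for 3-week apices, JMJD5 also in that for 5-week apices, and PRR5 only in that for leaves. The genotype differences at 3 weeks are therefore a description for all members but PRR5, as are those of JMJD5 in 5-week apices and of PRR5 in leaves. Of 5 shoot meristem and 5 photosynthesis markers 0 and 0 carried a name, so the tissue labels were not checked against them.

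The first comparison asked how the genotypes differed in young apices. At 3 weeks the dawn genes and COL1 were higher in eop055 than in pep1-1, and the genes of the afternoon and evening were lower. LHY (Aa_G211810h1, paired with AT1G01060) stood at 11.6, 8.22 and 8.33 CPM in the pep1-1 libraries and at 26.8, 21.8 and 17.9 CPM in the eop055 libraries. CCA1 (Aa_G177850h1, paired with AT2G46830) stood at 1.31, 1.38 and 0.802 CPM in pep1-1 against 3.54, 2.67 and 1.96 CPM in eop055. COL1 (Aa_G356670h1, paired with AT5G15850) stood at 1.69, 1.17 and 1.603 CPM against 4.43, 3.70 and 3.99 CPM. For each of these 3 genes the lowest eop055 library lay above the highest pep1-1 library. The log2 fold changes were 1.25 ± 0.144 (SE) for LHY, 1.25 ± 0.243 for CCA1 and 1.44 ± 0.215 for COL1, or 2.38-fold, 2.38-fold and 2.70-fold.

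The later-phased genes lay on the other side. LUX (Aa_G656930h1, paired with AT3G46640) stood at 17.98, 18.2 and 19.5 CPM in pep1-1 and at 7.15, 6.79 and 12.7 CPM in eop055. FKF1 (Aa_G28730h1, paired with AT1G68050) stood at 5.00, 6.22 and 6.29 CPM against 1.16, 0.548 and 2.42 CPM. JMJD5 (Aa_G133240h1, paired with AT3G20810) stood at 11.1, 8.84 and 12.5 CPM against 1.16, 1.44 and 1.80 CPM, the widest gap of the 8 genes at this age. The genotypes did not overlap for any of these 3 genes, and in eop055 replicate 3 was the highest library for each. The log2 fold changes were -1.07 ± 0.206 for LUX, -2.11 ± 0.417 for FKF1 and -2.89 ± 0.475 for JMJD5, or 2.11-fold, 4.31-fold and 7.39-fold lower in eop055. PRR5 (Aa_G45380h1, paired with AT5G24470) stood at 34.8, 37.0 and 44.96 CPM in pep1-1 and at 20.5, 22.3 and 30.8 CPM in eop055, a log2 fold change of -0.67 ± 0.1498. ELF4 (Aa_G224250h1, paired with AT2G40080) stood at 2.77, 2.97 and 3.45 CPM against 0.749, 1.302 and 2.11 CPM, also without overlap. Its log2 fold change of -1.16 ± 0.409 did not pass the test, with an adjusted p of 0.136 (edgeR, quasi-likelihood test, Benjamini-Hochberg over all genes tested) and 0.0149 in a fit of those groups alone. In the authors' deposited table it stood at a log2 fold change of -1.14 with an adjusted p of 0.0308.

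In all, 7 of the 8 members were called at 3 weeks at an adjusted p under 0.05. Of all 21275 genes tested 3.68% were called. That share stands for 783 genes, a count that was 1744 in a fit of those groups alone and 360, 379 and 377 without pep1-1 replicate 2, pep1-1 replicate 3 or eop055 replicate 2. Since 7 members carry a name because of this same comparison, nothing is read from that count. The same holds for the median size of the log2 fold change, which was 1.25 over the members and 0.13 over all genes tested. PRR5, the one member not named from these libraries, had an adjusted p of 0.0138. It was not called in a fit of those groups alone (0.104) or without pep1-1 replicate 3 (0.0848), eop055 replicate 1 (0.0704) or eop055 replicate 2 (0.0892). In bulk tissue, fewer cells that express a gene and less RNA per cell cannot be told apart, here and below.

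**Figure D1:**
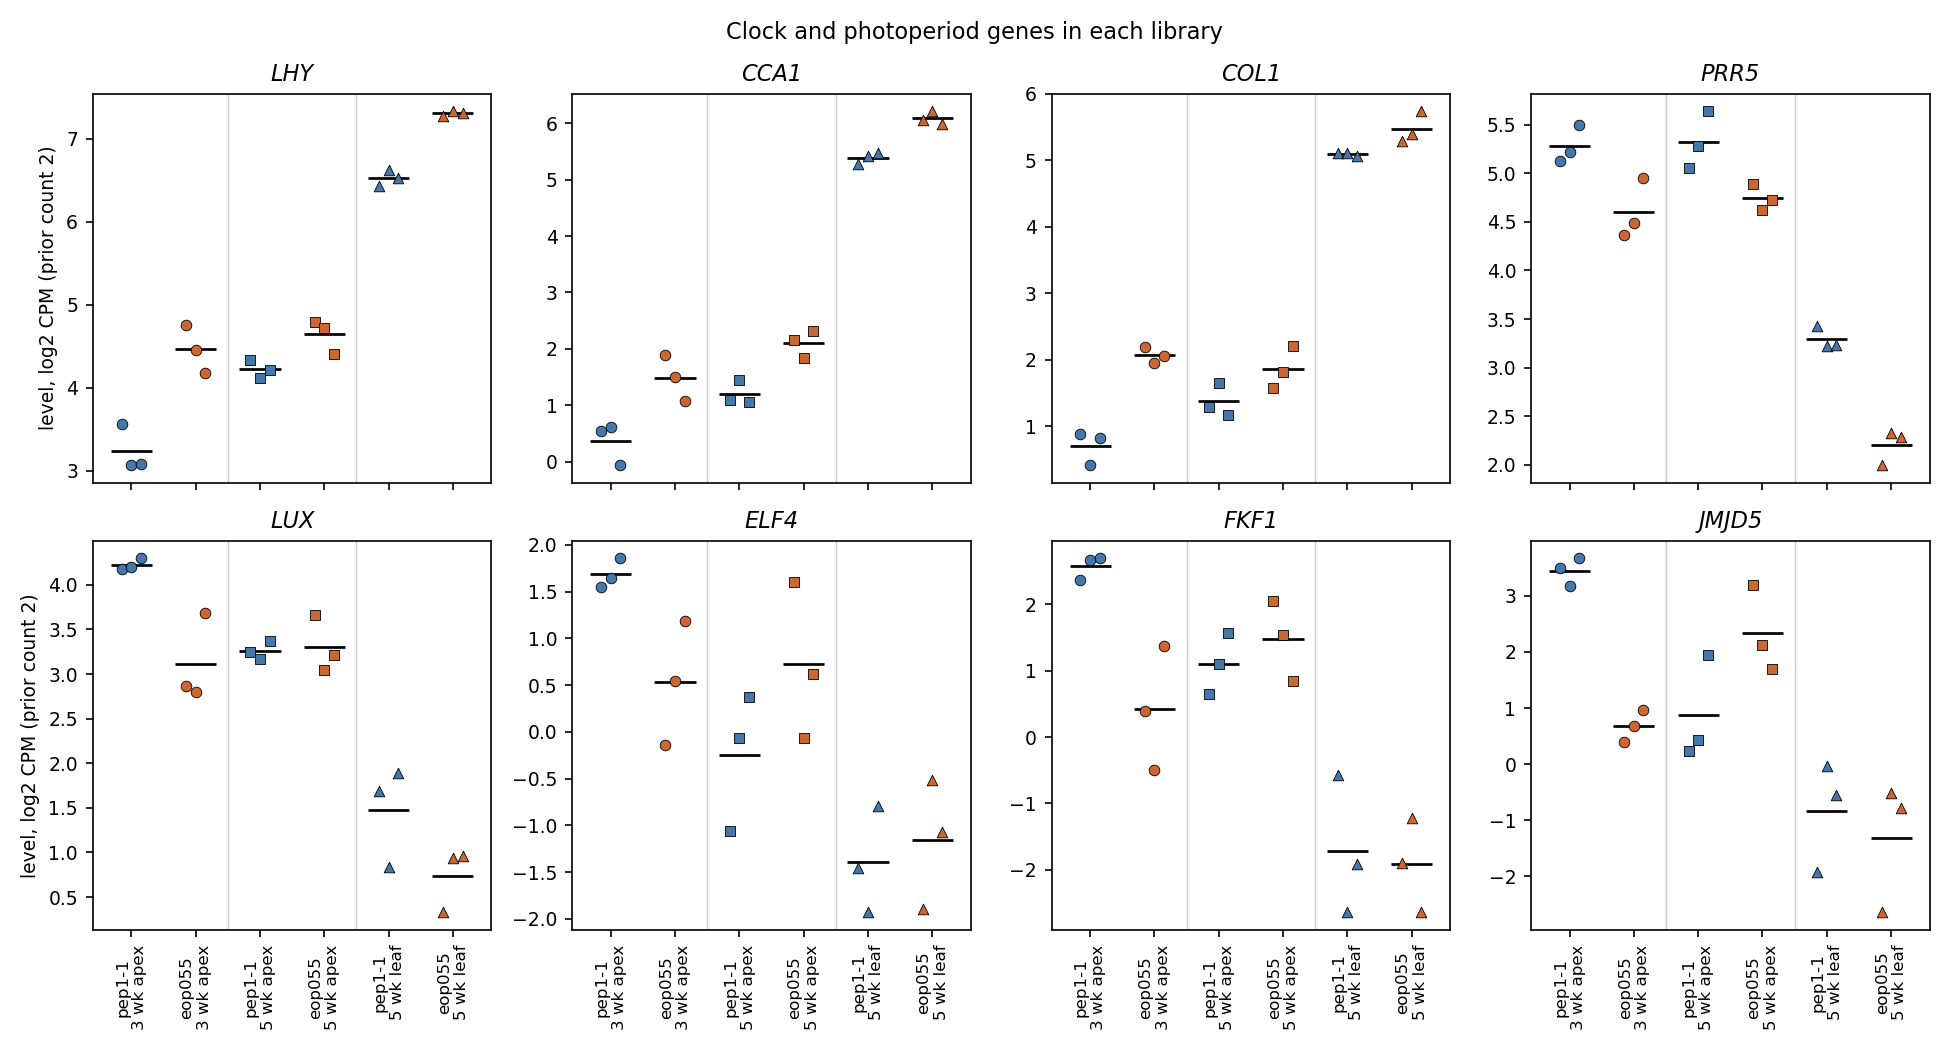
Level of each gene in each library as log2 CPM with a prior count of 2, by group; points are libraries in the order of replicates 1 to 3, lines are means of 3 (circles, 3-week apices; squares, 5-week apices; triangles, leaves; blue, pep1-1; orange, eop055), and the vertical scale differs between panels. In pep1-1 apices at 3 weeks the means of LHY, CCA1 and COL1 are the lowest and those of LUX, ELF4, FKF1 and JMJD5 the highest. The leaf means of both genotypes are the highest for LHY, CCA1 and COL1 and the lowest for the other genes.

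At 5 weeks the dawn genes were again higher in eop055 apices and PRR5 lower, while the means of LUX, ELF4, FKF1 and JMJD5 were not below those of pep1-1. LHY stood at 20.0, 17.2 and 18.5 CPM in pep1-1 and at 27.7, 26.2 and 21.1 CPM in eop055. CCA1 stood at 1.97, 2.57 and 1.92 CPM against 4.32, 3.42 and 4.80 CPM. PRR5 stood at 33.1, 38.8 and 49.7 CPM against 29.5, 24.5 and 26.2 CPM. None of these 3 genes overlapped between genotypes. LHY rose by 0.42 ± 0.134 and CCA1 by 0.97 ± 0.206 on the log2 scale, and PRR5 fell by 0.60 ± 0.149 on the log2 scale.

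The remaining 5 genes did not pass the test in 5-week apices. COL1 stood at 2.29, 2.97 and 2.0995 CPM in pep1-1 and at 2.81, 3.36 and 4.47 CPM in eop055, a log2 fold change of 0.55 with a 95% interval of 0.13 to 0.97. LUX differed by 0.06 on the log2 scale (95% interval -0.38 to 0.51) and FKF1 by 0.46 (-0.43 to 1.35). ELF4 stood at 0.318, 0.792 and 1.14 CPM in pep1-1 against 2.88, 0.795 and 1.38 CPM in eop055, a log2 fold change of 1.21 with an interval of 0.19 to 2.24. JMJD5 stood at 1.02, 1.19 and 3.67 CPM against 8.99, 4.22 and 3.09 CPM. Its eop055 libraries overlapped those of pep1-1 only through pep1-1 replicate 3. The log2 fold change of JMJD5 was 1.49 ± 0.488, with an adjusted p of 0.0543 (edgeR).

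In 5-week apices 3 of 8 members were called, 2 higher and 1 lower, against 14.5% of all genes tested (7.16% higher and 7.30% lower). The median size of the log2 fold change was 0.57 over the members and 0.17 over all genes. The adjusted p was 0.00189 for CCA1, 0.00968 for PRR5 and 0.0400 for LHY (edgeR). LHY was not called without pep1-1 replicate 1, 2 or 3 (0.0532, 0.143 and 0.112) or eop055 replicate 1 or 2 (0.161 and 0.130), and PRR5 not without pep1-1 replicate 3 (0.0679) or eop055 replicate 2 (0.0519). JMJD5 was called with DESeq2 (0.0136), under a filter of 50 counts in 3 libraries (0.0455), without pep1-1 replicate 3 (0.00653) and without eop055 replicate 3 (0.0236). COL1 was called without eop055 replicate 1 (0.0389) and ELF4 without eop055 replicate 2 (0.0418). Floral genes moved with this comparison. The 7 named of 9 floral meristem and organ markers summed to 3.499 to 3.82 CPM in pep1-1 and to 23.0 to 61.0 CPM in eop055 at this age. These markers carry a name only because the authors had called them between genotypes, so their sums are a description. AP1, the floral meristem identity gene, had 1 count over the pep1-1 libraries. All 7 floral genes were highest in eop055 replicate 3, as were CCA1 and COL1, while the other 6 members were highest in eop055 replicate 1. The part of floral tissue in the differences was not tested.

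In leaves LHY, CCA1 and COL1 were higher in eop055 than in pep1-1 and PRR5 was lower. LHY stood at 86.4, 98.4 and 92.5 CPM in pep1-1 leaves and at 154.6, 161.2 and 159.1 CPM in eop055 leaves. CCA1 stood at 38.5, 42.5 and 44.3 CPM against 66.3, 73.9 and 63.2 CPM, and PRR5 at 10.6, 9.18 and 9.21 CPM against 3.83, 4.85 and 4.73 CPM. COL1 stood at 34.4, 34.2 and 33.2 CPM against 38.8, 41.7 and 53.1 CPM. The genotypes did not overlap for any of these 4 genes, although the eop055 leaf libraries differed most among replicates, with a chi-square per gene of their counts, given equal expression, of 25.04 between replicates 2 and 3 and of 1.505 to 13.5 between all other pairs of replicates. LHY rose by 0.78 ± 0.117, CCA1 by 0.70 ± 0.122 and COL1 by 0.39 ± 0.129 on the log2 scale, and PRR5 fell by 1.12 ± 0.227 on the log2 scale. In leaves, 4 of 8 members were called, 3 higher and 1 lower, against 26.6% of all genes tested (15.0% higher and 11.6% lower), a count of 5661 genes that was 3350 in a fit of those groups alone.

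In leaves LHY had an adjusted p of 7.73e-05, CCA1 of 0.000176, COL1 of 0.0248 and PRR5 of 0.00110 (edgeR). COL1 was not called without pep1-1 replicate 1, 2 or 3 (0.0588, 0.0613 and 0.0754) or without eop055 replicate 3 (0.174), which held its highest level. LUX stood at 3.07, 1.63 and 3.56 CPM in pep1-1 and at 1.095, 1.75 and 1.79 CPM in eop055. Its log2 fold change of -0.84 ± 0.377 did not pass the test and was called without pep1-1 replicate 2 (0.0337). ELF4, FKF1 and JMJD5 were close to the limit of detection in leaves, with 7, 6 and 14 counts over the pep1-1 libraries and 8, 3 and 8 over the eop055 libraries. Their genotype difference was not detectable at this depth. For FKF1 the ratio of eop055 to pep1-1 was 0.559 with a 95% counting interval of 0.0904 to 2.62 (exact Clopper-Pearson), which covers counting error only.

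**Figure D2:**
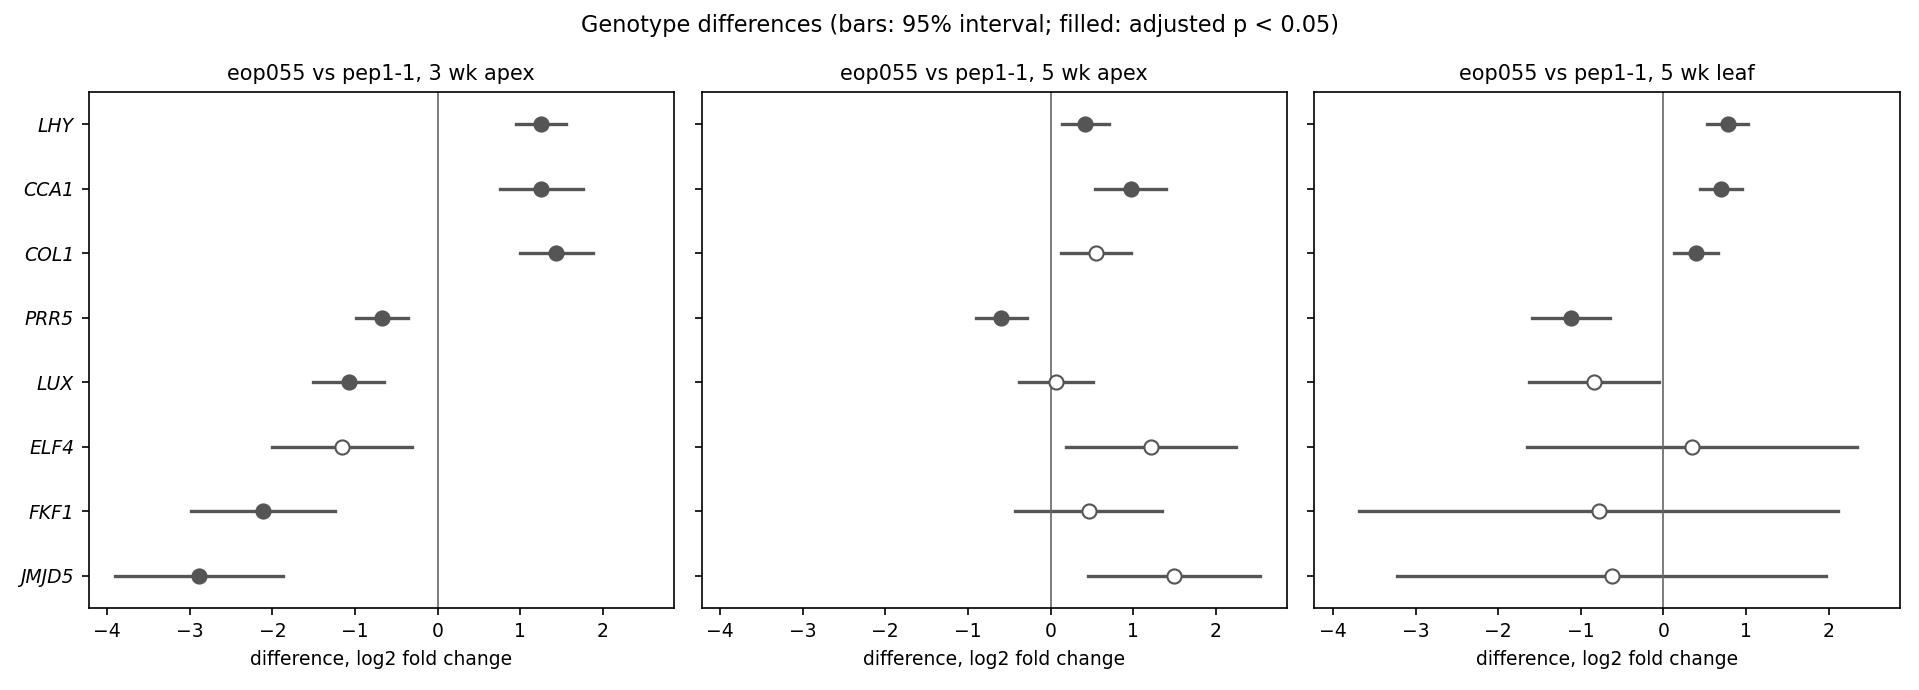
Log2 fold change of eop055 against pep1-1 for each gene in 3-week apices, 5-week apices and 5-week leaves; bars are 95% intervals of the fit and filled points have an adjusted p under 0.05. LHY and CCA1 lie above 0 in all 3 panels and PRR5 below, while LUX, ELF4, FKF1 and JMJD5 lie below 0 at 3 weeks and above 0 in 5-week apices, where none of these 4 passed the test.

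The genotype difference was set against tissue directly. In the test of whether it differed between leaf and apex at 5 weeks, edgeR's quasi-likelihood test called 0 of 8 members, against 20.1% of all genes tested (10.9% above 0 and 9.16% below). At an unadjusted p under 0.05 the count was 0, and DESeq2 called 0. The 95% intervals were widest for the 3 genes near the limit of detection in leaves. On the log2 scale the difference was -2.12 for JMJD5 (interval -4.94 to 0.70), -1.24 for FKF1 (-4.31 to 1.82) and -0.87 for ELF4 (-3.22 to 1.48). Among the better measured genes it was 0.35 for LHY (-0.02 to 0.73), -0.27 for CCA1 (-0.77 to 0.23) and -0.15 for COL1 (-0.65 to 0.34). For PRR5 it was -0.52 (-1.09 to 0.05) and for LUX -0.90 (-1.80 to 0.0045).

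The next question was how the same genes changed between 3 and 5 weeks in apices of each genotype. In pep1-1, 7 of 8 members changed, 3 higher and 4 lower at 5 weeks, against 38.9% of all genes tested (18.7% higher and 20.3% lower). The pep1-1 libraries of 3 weeks helped to name these 7 members, so nothing is read from that count. LHY rose by 1.00 ± 0.148, CCA1 by 0.89 ± 0.261 and COL1 by 0.70 ± 0.240 on the log2 scale. JMJD5, ELF4, FKF1 and LUX fell, with log2 fold changes of -2.49 ± 0.467, -2.09 ± 0.466, -1.53 ± 0.402 and -0.97 ± 0.207. In pep1-1 the 2 ages did not overlap for any of these 7 genes, and the share of all genes without overlap was not counted. PRR5 did not pass the test, with a log2 fold change of 0.05 and a 95% interval of -0.26 to 0.36.

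In eop055, 2 of 8 members changed with age, both higher at 5 weeks, against 35.9% of all genes tested (16.5% higher and 19.4% lower). JMJD5 rose by 1.89 ± 0.497 on the log2 scale, from 1.16, 1.44 and 1.80 CPM to 8.99, 4.22 and 3.09 CPM, without overlap. It was named through the genotype comparisons at both ages, which include these eop055 libraries, so its rise is a description. CCA1 rose by 0.60 ± 0.191, with overlapping libraries, and was not called without eop055 3-week replicate 2 or 3 (0.0514 and 0.105) or 5-week replicate 3 (0.0846). LHY had a log2 fold change of 0.17 with an interval of -0.10 to 0.44, COL1 of -0.19 (-0.56 to 0.19), PRR5 of 0.13 (-0.19 to 0.44), LUX of 0.16 (-0.28 to 0.61) and ELF4 of 0.28 (-0.62 to 1.18). FKF1 had a log2 fold change of 1.04 ± 0.442 and did not pass the test, with an adjusted p of 0.0735 (edgeR). It was called without eop055 3-week replicate 3 (0.00963) or 5-week replicate 3 (0.0318). Floral genes moved with age in eop055 too. The 7 named floral markers summed to 3.36 to 4.54 CPM at 3 weeks and to 23.0 to 61.0 CPM at 5 weeks, against 5.00 to 6.53 and 3.499 to 3.82 CPM in pep1-1. AP1, LFY, AP3, PI, SEP1 and SEP4 all rose with age in eop055, and SEP3 did not pass the filter on low counts. These markers were named through genotype differences, and the eop055 apices of 5 weeks are also part of such a comparison. Their rise is therefore a description. The part of floral tissue in the changes of JMJD5 and CCA1, and in the differences between genotypes in the change with age, was not tested. The median size of the log2 fold change with age was 0.99 over the members and 0.29 over all genes in pep1-1, and 0.23 against 0.27 in eop055. The 3-week libraries of both genotypes helped to name 7 members. Nothing is therefore read from these medians or from the counts of members changed.

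For pep1-1 the adjusted p was 2.86e-05 (LHY), 0.00937 (CCA1) and 0.0232 (COL1), and it was 0.000838 for LUX, 0.00102 for ELF4, 0.00511 for FKF1 and 0.000639 for JMJD5 (edgeR). CCA1 was not called without pep1-1 3-week replicate 3 (0.0686), and COL1 not without pep1-1 3-week replicate 2 (0.101), without 5-week replicate 2 (0.105) or in a fit of those groups alone (0.0581). The comparison with age in pep1-1 and the genotype comparison at 3 weeks share the pep1-1 libraries of 3 weeks, from which 7 members were named. Their values are therefore given side by side and not as independent results. Reads assigned to no gene model took 10.6 to 11.1% of the reads listed at 3 weeks in pep1-1 and 11.1 to 11.8% in eop055. At 5 weeks the shares were 13.7 to 16.6% and 14.0 to 14.7%, and their part in the differences with age was not tested.

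The change with age was tested for a difference between the genotypes. That difference, which equals the genotype difference at 5 weeks minus that at 3 weeks, was called for 5 of 8 members, 4 above 0 and 1 below, against 10.6% of all genes tested (4.49% above and 6.16% below). It was 4.38 ± 0.681 on the log2 scale for JMJD5, which fell with age in pep1-1 and rose in eop055. For FKF1, ELF4 and LUX it was 2.57 ± 0.597, 2.38 ± 0.643 and 1.14 ± 0.297, and for LHY -0.83 ± 0.198. The adjusted p was 0.000685 for JMJD5, 0.00777 for FKF1, 0.0177 for ELF4, 0.0159 for LUX and 0.00936 for LHY (edgeR).

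COL1, with -0.89 and a 95% interval of -1.51 to -0.26, did not pass this test, and CCA1 (-0.29, interval -0.95 to 0.38) and PRR5 (0.08, interval -0.37 to 0.52) did not either. ELF4 was not called without pep1-1 5-week replicate 1 (0.0622) or eop055 5-week replicate 1 (0.0931). LUX was not called without eop055 3-week replicate 2 (0.0519) or 5-week replicate 1 (0.0510), so that 3 members were left without eop055 5-week replicate 1, and COL1 was called without eop055 5-week replicate 3 (0.0212). This difference includes the 3-week libraries used to name 7 members. For JMJD5 it also includes the 5-week libraries, through which that gene was named too. Nothing is read from the count of members called.

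**Figure D3:**
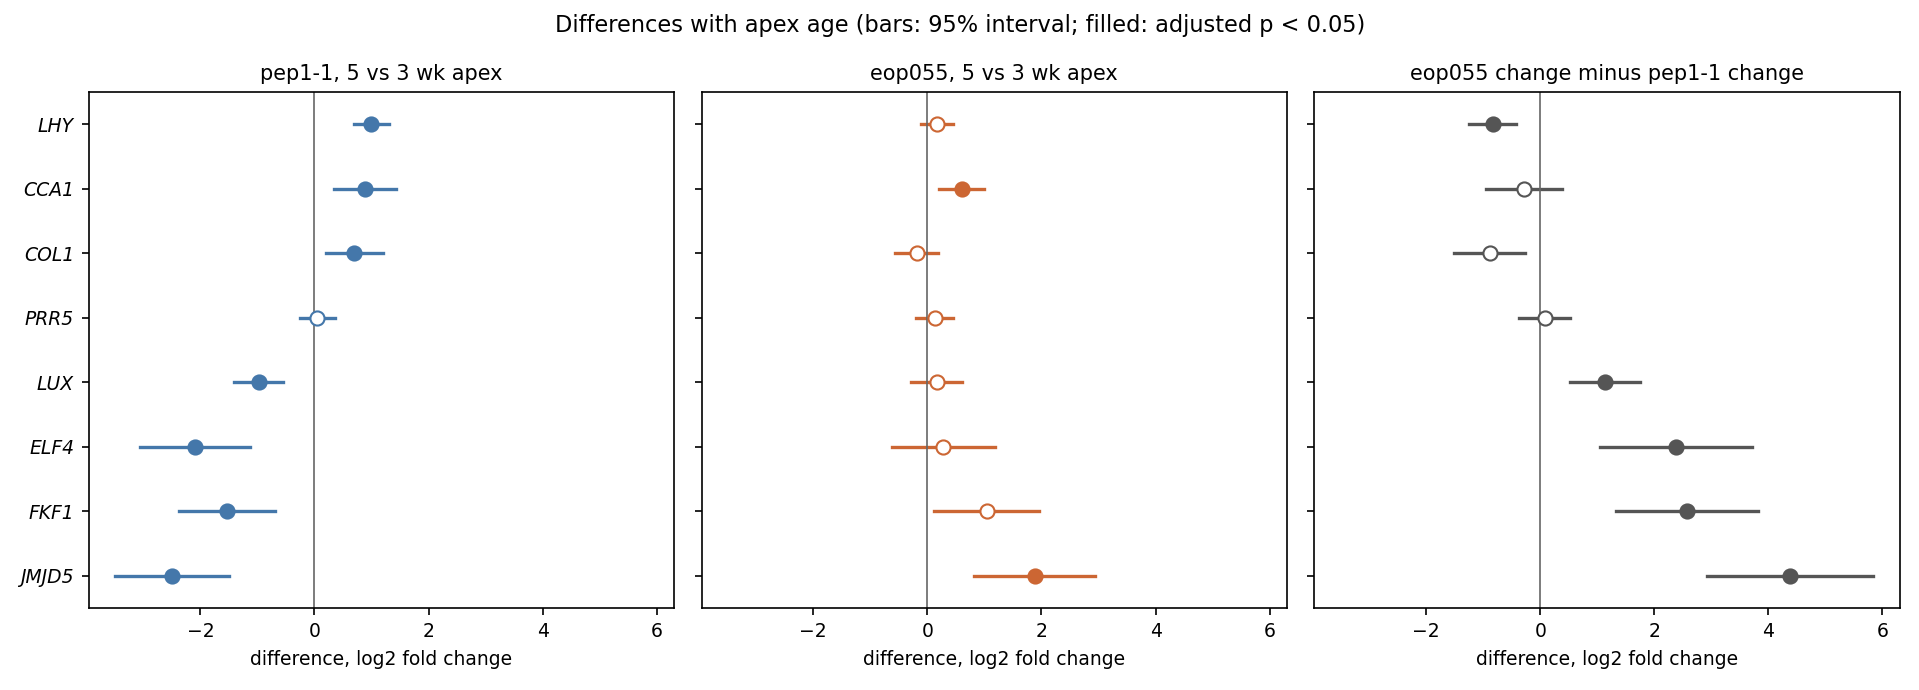
Log2 fold change between 5 and 3 weeks in pep1-1 apices (left) and eop055 apices (middle), and the eop055 change minus the pep1-1 change (right); bars are 95% intervals of the fit and filled points have an adjusted p under 0.05. In pep1-1 all members but PRR5 are filled, in eop055 only CCA1 and JMJD5, and the difference is largest for JMJD5.

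An index of the dawn against the later genes was formed in each library as the mean log2 CPM of CCA1 and LHY minus the mean of LUX, ELF4, FKF1 and PRR5. Its members were chosen with earlier results of these data known, so it is given without a test, and only its differences between libraries carry meaning. Apices of pep1-1 at 3 weeks had the lowest values, -1.25, -1.59 and -2.07. In eop055 apices at 3 weeks the index was 1.44, 1.14 and -0.17, in pep1-1 apices at 5 weeks 0.74, 0.42 and -0.10, and in eop055 apices at 5 weeks 0.43, 1.00 and 1.01. These 3 groups overlapped one another. Leaves lay far above, at 5.08 to 6.15 in pep1-1 and 6.39 to 7.03 in eop055, without overlap. In leaves FKF1 had 0 to 5 counts per library and ELF4 1 to 4, so these values depend in part on the prior count. With a prior count of 0.5 the mean index of eop055 leaves was 7.17 instead of 6.73.

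**Figure D4:**
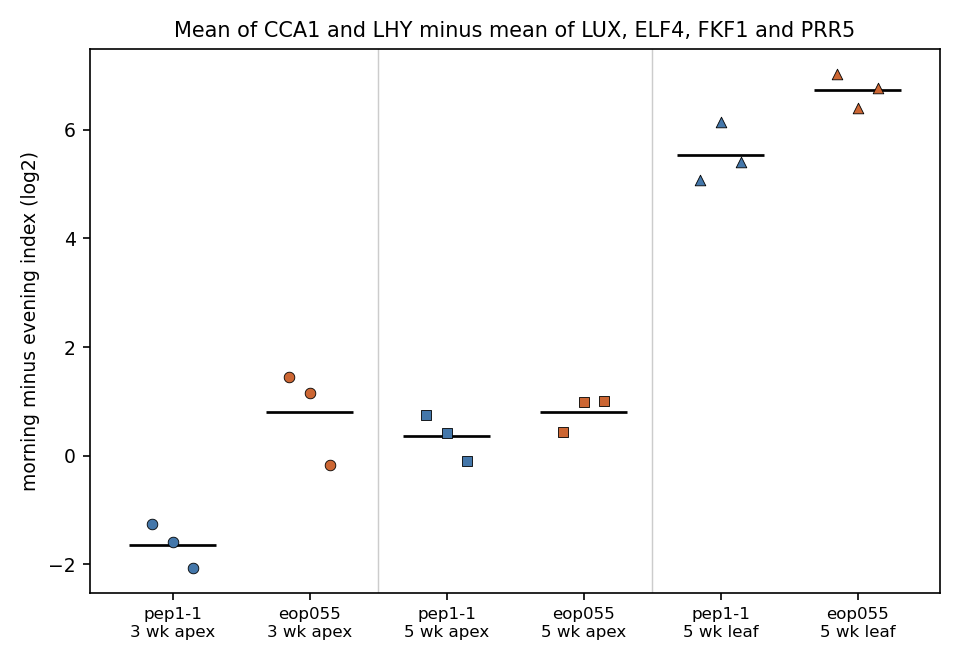
Mean log2 CPM of CCA1 and LHY minus that of LUX, ELF4, FKF1 and PRR5 in each library, by group; points are libraries and lines are means of 3. The 3 pep1-1 apex libraries of 3 weeks lie at or below -1.25 and the other 9 apex libraries between -0.17 and 1.44. The leaves lie above 5, at values that depend in part on the prior count.

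Apices of eop055 at 3 weeks and of pep1-1 at 5 weeks differ in both genotype and age, and their levels are given without a test. LHY averaged 22.2 and 18.6 CPM, LUX 8.87 and 9.44 CPM, FKF1 1.38 and 2.06 CPM and JMJD5 1.47 and 1.96 CPM in these groups, with overlapping libraries for each of these genes. CCA1, at 2.72 and 2.16 CPM, and ELF4, at 1.39 and 0.749 CPM, overlapped as well. COL1 (4.04 and 2.45 CPM) and PRR5 (24.6 and 40.5 CPM) did not.

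The tissues were then compared at 5 weeks within each genotype. In pep1-1, 7 of 8 members were called between leaf and apex, 3 higher and 4 lower in leaves, against 80.3% of all genes tested (37.3% higher and 43.0% lower). All 8 were called in eop055, 3 higher and 5 lower, against 83.2% (39.0% higher and 44.2% lower). Nothing is read from the counts of lower members, since FKF1, ELF4 and JMJD5 passed the filter through their levels in apices. CCA1 was 19.5-fold higher in leaves of pep1-1 and 16.2-fold higher in those of eop055. COL1 was 13.9-fold and 12.5-fold higher and LHY 4.95-fold and 6.33-fold higher. These 3 genes were the only members above the apex level, and no leaf library overlapped an apex library for them.

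The other members were lower in leaves. PRR5 fell, with log2 fold changes of -2.06 ± 0.172 in pep1-1 and -2.58 ± 0.199 in eop055, and so did LUX, with -1.78 ± 0.269 and -2.68 ± 0.302. FKF1 had 6 counts in pep1-1 leaves against 74 in apices, a log2 fold change of -3.23 ± 0.734. In eop055 it had 3 counts against 128, a ratio of apex to leaf of 24.1 with a 95% counting interval of 8.07 to 118. JMJD5 fell as well, with log2 fold changes of -1.97 ± 0.786 in pep1-1 and -4.09 ± 0.750 in eop055. ELF4 fell by 2.40 ± 0.640 on the log2 scale in eop055, and in pep1-1 its log2 fold change of -1.53 did not pass the test, with a 95% interval of -3.12 to 0.06. FKF1, ELF4 and JMJD5 passed the filter on low counts through their levels in apices, so their lower levels in leaves are a description.

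JMJD5 in pep1-1 was not called between leaf and apex without apex replicate 3 (0.175) or leaf replicate 1 or 3 (0.113 and 0.0660), and ELF4 was called without apex replicate 1 (0.0243). In edgeR the largest adjusted p among the members called in eop055 was 0.00145, for ELF4. Scaling by RLE instead of TMM moved the median of all genes in this comparison from -0.14 to -0.03 on the log2 scale in eop055 and left the number of members called in both genotypes as it was.

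The order of the 6 groups by level differed between members. For LHY and CCA1 the order of means ran from eop055 leaf over pep1-1 leaf, eop055 apex at 5 weeks, eop055 apex at 3 weeks and pep1-1 apex at 5 weeks to pep1-1 apex at 3 weeks. The 3 groups from eop055 apex at 5 weeks to pep1-1 apex at 5 weeks overlapped with their neighbours in that order, and the other neighbours did not overlap. COL1 had the same ends, with the eop055 apices of 3 weeks above those of 5 weeks. By mean, LUX, FKF1 and JMJD5 were highest in pep1-1 apices at 3 weeks, followed by eop055 and pep1-1 apices at 5 weeks, eop055 apices at 3 weeks, pep1-1 leaves and eop055 leaves. From eop055 apices at 5 weeks to eop055 apices at 3 weeks neighbours overlapped, as did the leaves of both genotypes. Leaves of pep1-1 did not overlap eop055 apices at 3 weeks. For JMJD5 eop055 apices at 5 weeks also overlapped pep1-1 apices at 3 weeks, and for LUX and FKF1 they did not. ELF4 was likewise highest in pep1-1 apices at 3 weeks, and each of its neighbours in the order overlapped. PRR5 was highest in pep1-1 apices of both ages, which overlapped, followed without overlap by the eop055 apices of both ages and then by pep1-1 and eop055 leaves.

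Replicates of 1 group also varied together. The log2 CPM of each gene was taken as its deviation from the group mean in each of the 12 apex libraries, which removes the differences between groups. PRR5, LUX, ELF4, FKF1 and JMJD5 then moved together. Pearson's r of PRR5 with the other 4 was 0.72 to 0.85, and r among those 4 was 0.55 to 0.79, with a median of 0.68. For comparison, the 95th percentile of r with all other genes tested was 0.553 for LUX, 0.59 for FKF1, 0.61 for PRR5, 0.62 for ELF4 and 0.63 for JMJD5. The r of LUX with JMJD5 (0.550) and of ELF4 with FKF1 (0.579) lay below that percentile for both genes of the pair. PRR5 had r of -0.55 with LHY and -0.59 with CCA1. Both lay above the 5th percentile of r of PRR5 with all other genes tested, -0.61. Among LHY, CCA1 and COL1 r was -0.07 to 0.36.

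The libraries behind this pattern could be named. In eop055 at 3 weeks replicate 3 had the highest PRR5, LUX, ELF4, FKF1 and JMJD5 and the lowest LHY and CCA1 of the group. In pep1-1 at 5 weeks replicate 3 was the highest for the same 5 genes. In eop055 at 5 weeks replicate 1 was the highest for all 5, and in pep1-1 at 3 weeks replicate 3 was. These correlations describe 12 libraries whose genes share depth and scaling, and no test was made of them.

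**Figure D5:**
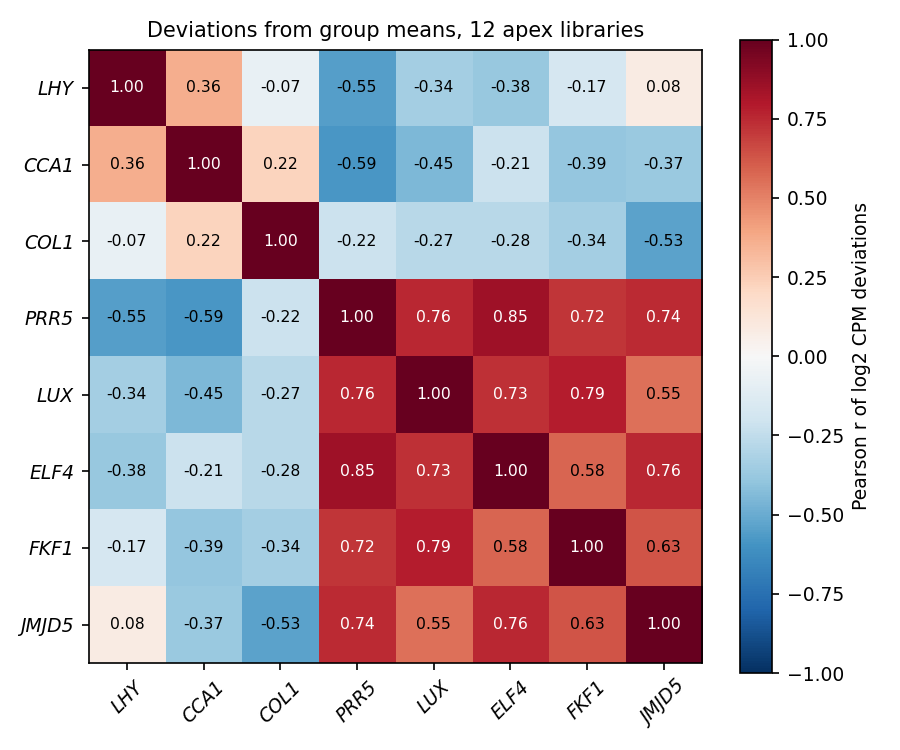
Pearson's r between genes of their log2 CPM deviations from the group mean over the 12 apex libraries; red is positive and blue negative. PRR5, LUX, ELF4, FKF1 and JMJD5 form a block of r between 0.55 and 0.85. With PRR5, r of LHY and CCA1 is -0.55 and -0.59, above the 5th percentile for PRR5 with all other genes (-0.61).

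Of 55 other clock and photoperiod genes listed, 4 carried a name in the deposited tables and were tested. BOA (Aa_G28220h1), the close homolog of LUX, stood at 2.77, 3.04 and 6.54 CPM in 3-week pep1-1 apices and at 0.817, 1.03 and 1.64 CPM in those of eop055. FITNESS (AT1G07050, Aa_G663690h1), which encodes a CCT domain like that of CONSTANS, stood at 6.76, 5.94 and 10.1 CPM against 1.63, 1.92 and 2.42 CPM. BBX25 (Aa_G167490h1), a B-box protein of light signalling, stood at 9.68, 8.70 and 5.30 CPM against 22.3, 20.8 and 13.1 CPM. None of these 3 genes overlapped between genotypes at 3 weeks. Their log2 fold changes there were -1.85 ± 0.458, -1.94 ± 0.301 and 1.27 ± 0.217. Of the 4 listed genes 1 was called higher and 2 lower, against 3.68% of all genes tested called, and BBX32 was not called. All 3 are named through that comparison.

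In 5-week apices 0 of the 4 passed edgeR's test between genotypes, against 14.5% of all genes tested. There 0 had an unadjusted p under 0.05 and DESeq2 called 0. In leaves the B-box gene BBX32 (Aa_G162010h1) rose by 1.77 ± 0.512 on the log2 scale, from 15.3, 31.0 and 29.6 CPM to 63.5, 163.8 and 33.3 CPM, and is named through that comparison. With age in pep1-1 apices FITNESS fell by 1.98 ± 0.308 on the log2 scale and the other 3 did not pass edgeR's test, while DESeq2 called 2 of the 4. Of all genes tested edgeR called 38.9% there. In eop055 edgeR called 0 of the 4, against 35.9% of all genes tested, 0 had an unadjusted p under 0.05 and DESeq2 called 0. FITNESS was named from the 3-week libraries. They are part of its change with age and of its genotype difference at 5 weeks minus that at 3 weeks, so both are a description. That difference was 2.40 ± 0.452, with an adjusted p of 0.000945 (edgeR). EdgeR called 1 of the 4 for that difference, against 10.6% of all genes tested, and DESeq2 called 3. For the genotype difference in leaf minus apex edgeR called 0 of the 4, against 20.1%, and DESeq2 called 2. Between leaf and apex, 2 of the 4 rose and 1 fell in each genotype, where 80.3% of all genes tested were called in pep1-1 and 83.2% in eop055. BBX25 rose by 3.86 ± 0.202 and 3.78 ± 0.193 on the log2 scale in pep1-1 and eop055, and BBX32 by 2.99 ± 0.663 and 5.23 ± 0.651. FITNESS had log2 fold changes of -0.997 ± 0.428 and -2.91 ± 0.512, and BOA, which did not pass the test, of -0.55 (95% interval -1.66 to 0.55) and -0.02 (-1.02 to 0.99).

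Genes with the most similar course over the 12 apex libraries were looked up among 702 other named genes that averaged 5 CPM or more there. Likeness was Pearson's r of log2 CPM, which includes the differences between groups. The nearest to CCA1 were the pectin lyase-like gene AT1G10640 (r = 0.94) and the starch synthase gene GBSS1 (0.89). LHY was nearest to the inositol phosphate synthase gene MIPS2 (0.87) and to NEET (0.86), which encodes an iron-sulphur protein, and COL1 to NEET (0.88) and AT5G65660 (0.83). PRR5 was nearest to ERD5 (0.86), a proline dehydrogenase gene, and to the hydrolase gene AT2G03550 (0.85).

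Among the evening genes the peptidase gene AT5G24260 was a nearest gene of ELF4 (0.91), LUX (0.85), FKF1 (0.81) and JMJD5 (0.80). TAG1, an acyltransferase gene of oil synthesis, was the nearest to LUX (0.85) and FKF1 (0.85), the cytosine methyltransferase gene CMT3 was near ELF4 (0.83), and CYP83B1, of the indole glucosinolate branch, was the nearest to JMJD5 (0.84). The highest r between members were 0.90 for LUX and FKF1, 0.88 for LHY and CCA1 and 0.87 for FKF1 and JMJD5. Other pairs were less alike: PRR5 reached at most 0.63 with a member, FKF1, and had 0.29 with ELF4. The nearest genes had all been called between genotypes by the authors, and the part of this choice in their likeness was not tested.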

How the data were processed

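Polyadenylated RNA of 18 libraries was sequenced as single reads from a strand-marking kit, per the labels' protocols. Raw counts per gene were deposited by the authors. STAR, HTSeq 0.5.4p1, DESeq and DESeq2 are named in the submitters' processing notes; the genome build and strand setting are not given in the sources used, so reads shared with close homologs or antisense genes could not be examined. The authors' deposited tables of called genes hold their own log2 fold changes and adjusted p-values; they served to pair 1399 identifiers with Arabidopsis loci, and of their values only those of ELF4 are printed. Entries that name no gene (5) were left out of library sizes; reads assigned to no gene model made up 7.76 to 16.6% of the reads listed.

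Genes were filtered with filterByExpr, scaled by TMM and fitted with edgeR 4.0.16 (R 4.3.3, quasi-likelihood F test, robust, 6 group means over all 18 libraries), leaving 21275 genes tested, with Benjamini-Hochberg adjustment over all of them and calls at an adjusted p under 0.05. The common biological coefficient of variation was 9.65%. The fit was tested on simulated data. Log2 CPM used a prior count of 2. Alternatives were DESeq2 1.42.0, RLE scaling, no filter, 50 counts in 3 libraries, only the groups compared, a replicate block, each library left out, and a prior count of 0.5. Named genes are all 8 members, every gene of the clock list that carries a locus and the 2 nearest genes of each member. Members and lists were chosen with earlier results of these data known.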

Additional observations from a re-analysis of the deposited data

Results flagged for a closer look

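For 5 of the 8 genes the genotype difference in apices differed between the ages by edgeR's interaction test, against 10.6% of all genes tested. The calls of ELF4 and LUX were lost in some fits with 1 library left out. The difference at 5 weeks minus that at 3 weeks was 4.38 on the log2 scale for JMJD5, 2.57 for FKF1, 2.38 for ELF4, 1.14 for LUX and -0.83 for LHY. The 3-week libraries in this test are those from which these genes were named. JMJD5 was also named from the 5-week apices, so both parts of its difference were used to name it. The count is therefore a description.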

How the results depend on the processing

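Of 43 called member results, 29 of the settings tried, in 10 results, lost the call and 0 reversed it; 514 kept direction and call. Of 29 results not called, 12 settings in 8 results gained a call and 15 in 9 results changed sign. The number of members called with age in eop055 was 1 without eop055 3-week apex replicate 2 (1 to 2 over libraries left out). For the difference between ages it was 3 without eop055 5-week apex replicate 1 (3 to 6). Over libraries left out it was 6 to 7 at 3 weeks, 2 to 4 in 5-week apices, 3 to 4 in leaves and 6 to 7 with age in pep1-1. It was 6 to 8 between leaf and apex in pep1-1, 8 to 8 in eop055, and 0 to 0 for the difference between tissues. With a prior count of 0.5 the index of eop055 leaves was 7.17 instead of 6.73.

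Signs changed only for uncalled values with 1 library left out, whose ranges follow. The genotype difference in leaf minus apex ran from -0.305 to 0.0422 for COL1 and from -2.23 to 0.56 for FKF1. In leaves it ran from -0.158 to 0.963 for ELF4 and from -1.77 to 1.03 for FKF1, and in 5-week apices from -0.135 to 0.194 for LUX. With age in eop055 ELF4 ran from -0.337 to 0.696 and LUX from -0.0348 to 0.502, and in pep1-1 PRR5 ran from -0.122 to 0.184. The difference between ages ran from -0.0576 to 0.268 for PRR5. The cause was not tested.

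Genes called over all were 783 at 3 weeks, but 1744 in a fit of those groups alone and 360 to 590 with 1 library left out. In leaves they were 5661, and 3350 in such a fit. ELF4 was not tested under the filter of 50 counts. Equal replicate numbers showed no pairing of libraries over all genes tested, where 1 of 45 such pairs had a correlation of deviations over 0.1 (-0.18 to 0.16). A pairing that touches only some genes could not be seen in this measure. With a replicate block 7 members were called at 3 weeks and 3 in 5-week apices, and the block changed no other call of a member. Depth limits ELF4, FKF1 and JMJD5 in leaves.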
